A study of Mus musculus with 6 samples.

Results

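Nox3, Noxo1, Cyba, Oc90, Otol1, Otop1, Otx2 and Vmo1 are 8 genes of the oxidase that serves otoconia formation, of the otoconia themselves and of the non-sensory roof of the inner ear. They were taken by symbol from 30462 genes in a table of cochlear RNA. All 8 were found, each at 1 position. They were selected on their FPKM in the knockout and wild type libraries, with that contrast already known, so the differences between these groups are given as a description of the members, with no p-value. Whether the fit over all genes called a member, and the counting intervals of fragment ratios, are part of that description and support nothing. RNA came from the cochlea, the hearing organ, of mice at postnatal day 7. There were 3 libraries labelled NEU4 KO (knockout replicates 2, 4 and 5) and 3 labelled WT (wild type replicates 3, 4 and 5). Neu4 encodes a sialidase, an enzyme that takes sialic acid off glycans. The labels give neither the strain, the kind of Neu4 allele nor the number of animals behind a library. The spread between libraries may therefore be technical in part.

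NOX3 is an NADPH oxidase, a membrane enzyme that passes electrons to oxygen and makes superoxide. It works with the membrane subunit encoded by Cyba and the cytosolic organizer encoded by Noxo1, and mice that lack NOX3 or one of these partners have no otoconia and tilt their heads. Otoconia are the calcium carbonate crystals that weigh down the gravity-sensing maculae of the vestibule, and the cochlea has none. Their matrix is built on otoconin-90 (Oc90), a protein related to secreted phospholipases, and on otolin (Otol1), a collagen-like protein, while Otop1 encodes a proton channel without which no otoconia form. Otx2 is a homeobox transcription factor of the non-sensory inner ear epithelium that becomes Reissner's membrane. Vmo1 encodes a small secreted protein named after the outer layer of the egg's vitelline membrane.

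Nox3 and Vmo1 were the members whose groups lay farthest apart, and their promoters are shown here for that reason. The window for each covers 250 bases before and 50 bases after a RefSeq transcript start on GRCm38.p6, written 5′ to 3′ on the gene's own strand. The third sequence is the Otx2 window that holds an OTX motif. Its first transcribed base, 48665109, lies inside the annotated gene, which begins at 48673819 on the minus strand. Capitals mark matches to the OTX motif, with the letters TAATCC on one strand and so GGATTA when read on the other, or to the TATA box, with the letters TATAAA on one strand and so TTTATA when read on the other. Both strands were searched, and no matches overlapped. The Vmo1 window is chr11:70514567-70514866, minus strand; the Nox3 window is chr17:3696212-3696511, minus strand; the Otx2 window is chr14:48665060-48665359, minus strand.
Vmo1: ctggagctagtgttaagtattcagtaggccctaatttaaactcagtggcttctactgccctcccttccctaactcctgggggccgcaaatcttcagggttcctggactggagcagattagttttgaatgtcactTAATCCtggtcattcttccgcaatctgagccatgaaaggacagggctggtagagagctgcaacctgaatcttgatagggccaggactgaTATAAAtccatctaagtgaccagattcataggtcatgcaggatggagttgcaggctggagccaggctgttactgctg
Nox3: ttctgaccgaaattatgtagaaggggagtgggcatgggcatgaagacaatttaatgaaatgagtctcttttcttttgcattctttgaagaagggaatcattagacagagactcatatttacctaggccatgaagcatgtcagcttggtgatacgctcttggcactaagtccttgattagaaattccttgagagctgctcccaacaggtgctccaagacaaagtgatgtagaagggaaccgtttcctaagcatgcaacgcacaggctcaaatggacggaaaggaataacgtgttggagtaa
Otx2: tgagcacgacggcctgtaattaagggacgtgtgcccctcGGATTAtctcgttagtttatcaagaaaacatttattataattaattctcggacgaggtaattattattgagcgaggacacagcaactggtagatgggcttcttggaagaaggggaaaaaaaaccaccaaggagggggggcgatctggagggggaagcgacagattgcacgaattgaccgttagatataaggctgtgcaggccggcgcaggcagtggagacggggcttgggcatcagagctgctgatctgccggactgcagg

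RefSeq held 10 such windows for 7 members, 4 of them for Otx2. All 4 Otx2 windows and that of Otop1 lay inside the annotated gene, and some Otx2 windows overlapped each other. In the Vmo1 window the OTX motif began 116 bases and the TATA box 27 bases before the start. The Nox3 window held neither set of letters. Of the 10 windows, 2 held the OTX motif (Vmo1 and the Otx2 window shown) and 2 held the TATA box (Vmo1 and another Otx2 window). Among all 32851 windows of this length, 7.06% held the OTX motif and 13.6% the TATA box. A match is a run of letters and not a bound site. The windows also differed in base composition. The Noxo1 window had 80.3% G and C with 46 CpG pairs and that of Otop1 had 71.7% with 18, against 43.3% with 6 for Nox3, 42.3% with 2 for Otol1 and 49.0% with 2 for Vmo1. The median over all windows was 52.7% and 7 CpG pairs.

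Levels are given as FPKM, fragments scaled to the length of a gene's exons and to the depth of the library, as deposited by the authors. The values implied totals of 15170973 to 17192293 mapped fragments per library, and 13916 to 14154 genes per library reached 1 FPKM. Neu4 (chromosome 1, 94020451 to 94028334, GRCm38) had FPKM of 0.0518, 0.102 and 0.0853 in knockout libraries 2, 4 and 5, against 0.0523, 0.1004 and 0.0810 in wild type libraries 3, 4 and 5. These values rest on 4, 8 and 6 fragments in the knockout libraries and on 4, 8 and 6 in wild type (exact two-sided permutation test p = 0.8, the smallest possible being 0.1), so Neu4 RNA did not check the labels, and the directions here refer to labelled libraries. By Xist and Ddx3y, knockout 2 and wild types 3 and 4 were male and the other 3 libraries female. Of inner ear genes, the tectorial membrane gene Tectb was between 93.9 and 116 FPKM in every library, while Slc26a5, the motor protein of outer hair cells, was at most 0.215. Tectb also belongs to the list below of otoconia and of membranes over the sensory epithelia, and was not used to tell cochlea from vestibule. The labels do not say whether vestibular tissue was part of the dissection. The 14072 genes that reached 1 FPKM in 3 or more libraries were fitted on log2(FPKM + 1) with limma. Called genes are those with a Benjamini-Hochberg adjusted p under 0.05 in that fit.

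The members spanned a wide range of levels. The mean over the 6 libraries was 84.8 FPKM for Oc90, 50.2 for Cyba, 16.3 for Vmo1, 8.77 for Nox3, 8.39 for Otol1, 0.863 for Otop1, 0.8505 for Noxo1 and 0.431 for Otx2. Oc90 was thus higher than 98.7% of the genes in the table. Neighbours in this order were separated in both groups except for 2 pairs. Nox3 and Otol1 overlapped in wild type (5.94 to 7.56 against 7.24 to 8.16 FPKM) but not in the knockout libraries (10.3 to 11.1 against 7.36 to 10.2). Otop1 and Noxo1 overlapped in wild type (0.491 to 0.997 against 0.831 to 1.14 FPKM) but not in the knockout libraries (0.854 to 1.19 against 0.686 to 0.817). The filter kept 5 members, namely Nox3, Cyba, Oc90, Otol1 and Vmo1. Noxo1 and Otop1 reached an FPKM of 1 in 1 library each and Otx2 in 0.

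**Figure D1:**
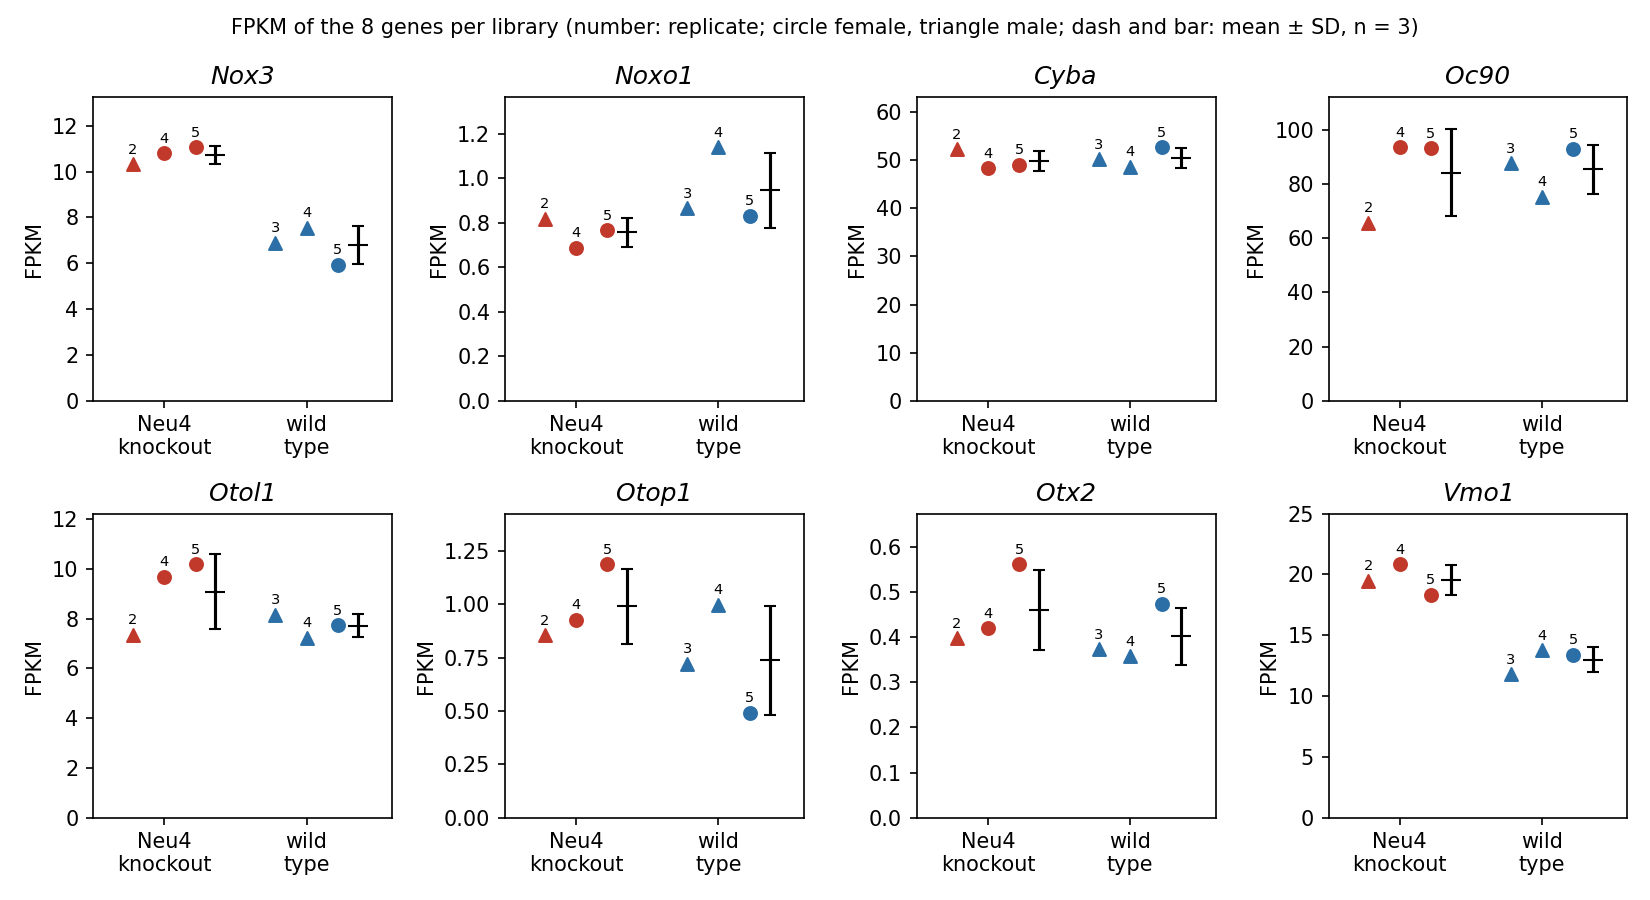
Each panel plots the FPKM of 1 gene (linear axis from 0) in the 3 knockout libraries, left, and the 3 wild type libraries, right, with the replicate number beside each point, circles for female and triangles for male libraries, and a dash with a bar for the mean ± SD (n = 3). Nox3 and Vmo1 lie higher in all 3 knockout libraries than in any wild type library, with means of 10.7 against 6.80 and 19.6 against 12.99 FPKM, while Cyba and Oc90 have nearly equal means.

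Nox3, the catalytic subunit, was higher in the libraries labelled knockout. This gene on chromosome 17 (3635240 to 3696261, minus strand, GRCm38) has 1 annotated transcript with 13 exons and 1792 exonic bases. It had an FPKM of 10.3, 10.8 and 11.1 in knockout libraries 2, 4 and 5, against 6.90, 7.56 and 5.94 in wild type libraries 3, 4 and 5. All knockout values lay above all wild type values, and the knockout libraries were closer to each other than the wild type ones. The values rest on 301 to 328 fragments per knockout library and 170 to 233 per wild type library. The means were 10.7 ± 0.384 FPKM in knockout and 6.80 ± 0.818 in wild type (SD, n = 3 each), a ratio of 1.58 and a log2 fold change of FPKM + 1 of 0.59 (SE 0.081, limma). In the male libraries the ratio of means was 1.43 (1 knockout, 2 wild type) and in the female ones 1.84 (2 knockout, 1 wild type).

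Cyba, the membrane subunit that NOX3 shares with other oxidases, had nearly equal means in both groups. This gene on chromosome 8 (122424776 to 122432930, minus strand) had 52.3, 48.4 and 49.1 FPKM in the knockout libraries, against 50.2, 48.6 and 52.7 in wild type. The groups overlapped throughout, with means of 49.9 ± 2.07 FPKM in knockout and 50.5 ± 2.07 in wild type (SD, n = 3 each) and a log2 fold change of -0.02 (SE 0.049). The predicted gene Gm20388 overlaps Cyba on the opposite strand, so that without strand information the level of Cyba may hold reads of that gene. Within a library Cyba stood 4.44 to 5.07 times above Nox3 in the knockout group and 6.43 to 8.89 times above it in wild type.

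Noxo1, the organizer, was low. It lies on chromosome 17 (24696234 to 24700529, plus strand), and part of it overlaps Tbl3 on the opposite strand, from which its reads cannot be told apart without strand information. Its FPKM was 0.817, 0.686 and 0.766 in the knockout libraries, against 0.864, 1.14 and 0.831 in wild type, resting on 35 to 41 and 40 to 59 fragments. All knockout values lay below all wild type values, the nearest pair being 0.817 and 0.831. The ratio of fragment rates was 0.797, with a 95% interval of 0.616 to 1.03 that covers counting error only. Nox3 stood 12.6 to 15.8 times above Noxo1 in the knockout libraries and 6.64 to 7.98 times above it in wild type.

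Oc90, the main matrix protein gene of otoconia, did not separate the groups. On chromosome 15 (65876053 to 65912397, minus strand), it had 65.8, 93.7 and 93.3 FPKM in the knockout libraries, against 87.8, 75.3 and 93.2 in wild type. The 3 female libraries were the highest and knockout 2 the lowest of all. The means were 84.2 ± 16.0 FPKM in knockout and 85.4 ± 9.16 in wild type (SD, n = 3 each), and the log2 fold change was -0.03 (SE 0.145). Of all tested genes, 9.05% had a larger spread within groups on the log2 scale than Oc90, which had 2095 to 3032 fragments per library.

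Otol1, the otolin gene, had a higher mean in the knockout libraries with overlapping values. On chromosome 3 (70007613 to 70028708, plus strand), it had 7.36, 9.68 and 10.2 FPKM in the knockout libraries, against 8.16, 7.24 and 7.73 in wild type. Knockout 4 and 5 were above every wild type library and knockout 2 was within their range. The means were 9.08 ± 1.51 FPKM in knockout and 7.71 ± 0.458 in wild type (SD, n = 3 each), with a log2 fold change of 0.20 (SE 0.11).

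Oc90 and Otol1 shared their low libraries. Relative to its group mean on the log2 scale, knockout 2 was at -0.33 for Oc90 and -0.26 for Otol1, and wild type 4 was at -0.17 and -0.08, each the lowest of its group. Oc90 stood 8.94 to 9.68 times above Otol1 in the knockout libraries and 10.4 to 12.1 times above it in wild type. Tecta, a tectorial membrane gene chosen after its values were seen, was also lowest in these libraries, at 21.2 FPKM in knockout 2 against 28.7 and 31.4 in the other knockouts, and at 24.0 in wild type 4 against 27.8 and 29.5 in the other wild types. Nox3 was likewise lowest of its group in knockout 2, at 10.3 FPKM, and so were Otop1 and Otx2, but in wild type 4 Nox3 and Vmo1 were at their group's highest value.

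Otop1, the proton channel gene on chromosome 5 (38275972 to 38304217, plus strand), was near the limit of what the depth resolves. It had 0.854, 0.927 and 1.19 FPKM in the knockout libraries, against 0.722, 0.997 and 0.491 in wild type, on 49 to 62 and 27 to 59 fragments. The groups overlapped because of wild type 4. The ratio of fragment rates was 1.32, with a counting interval of 1.04 to 1.68. In the male libraries alone the ratio of means was 0.994 and in the female ones 2.15.

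Otx2, on chromosome 14 (48657677 to 48673819, minus strand), was the lowest member. It had 0.398, 0.420 and 0.562 FPKM in the knockout libraries, against 0.373, 0.358 and 0.474 in wild type, on 28 to 36 and 26 to 32 fragments. The highest value of each group was in replicate 5, and the groups overlapped. The ratio of fragment rates was 1.14, with a counting interval of 0.841 to 1.55. Otx2 overlaps the non-coding gene Otx2os1 on the opposite strand and the annotated locus Gm49154 on its own, and its reads may be shared with both.

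Vmo1 was higher in the libraries labelled knockout. This compact gene on chromosome 11 (70513516 to 70514616, minus strand) has 1 annotated transcript of 3 exons and 672 exonic bases. It had 19.5, 20.8 and 18.3 FPKM in the knockout libraries, against 11.8, 13.8 and 13.4 in wild type, on 187 to 237 and 131 to 159 fragments. All knockout values lay above all wild type values. The means were 19.6 ± 1.25 FPKM in knockout and 12.99 ± 1.04 in wild type (SD, n = 3 each), a ratio of 1.505 and a log2 fold change of 0.56 (SE 0.071). The ratio of means was 1.52 in the male and 1.46 in the female libraries.

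Over the members, 5 had a higher and 3 a lower mean in the knockout libraries, and the groups did not overlap for 3 (Nox3 and Vmo1 above, Noxo1 below), where 24.8% of all tested genes did not overlap (15.2% with all knockout libraries above and 9.54% with all below). Of the 5 members that passed the filter, 2 were called, both higher, where 0.334% of tested genes were called (47 of 14072). Since the members were chosen with this contrast known, nothing is read from these counts. The 47 genes were 18 higher and 29 lower. Median-ratio scaling called 48 genes, 11 higher and 37 lower. With voom 390 of 13796 tested genes were called, 224 higher and 166 lower, the background for the voom counts of listed genes below. Of all tested genes, 56.9% were higher in the knockout libraries and 17.6% had an unadjusted p under 0.05, shares that stand beside the counts of listed genes that follow. The median log2 fold change was 0.20 over the 5 members and 0.02 over all tested genes. Over 14 alternative settings the log2 fold change of Nox3 stayed between 0.51 and 0.66 and that of Vmo1 between 0.49 and 0.60. Settings that changed only the filter or the trend could not move these values. Nox3 was called in 2 of the 14 settings and Vmo1 in 5. Leaving out any single library ended the call of Nox3, and leaving out any one except knockout 5 ended that of Vmo1. In a bulk sample, a change in the number of cells of a type and a change in RNA per cell cannot be told apart.

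**Figure D2:**
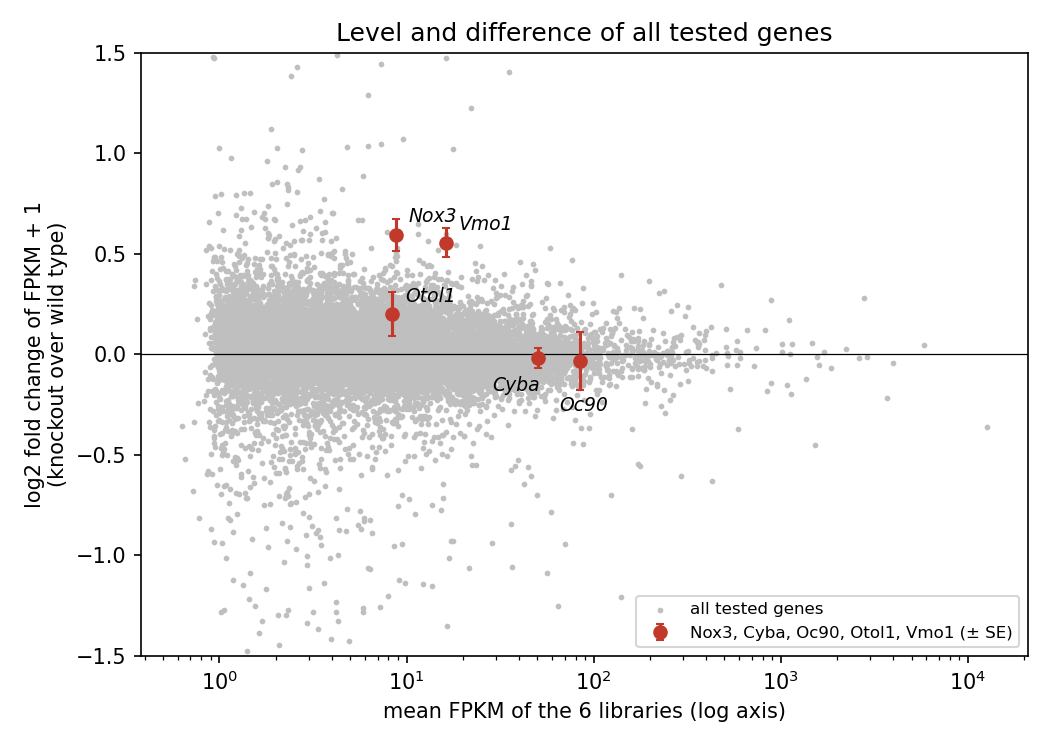
Each grey point is 1 of the 14072 tested genes, with its mean FPKM over the 6 libraries on a log axis and its log2 fold change of FPKM + 1 (knockout over wild type) on the other, where 31 genes lie outside the plotted range of ± 1.5. The 5 members that passed the filter are red with bars of 1 SE, Nox3 at 0.59 and Vmo1 at 0.56, Otol1 at 0.20, and Cyba and Oc90 near 0.

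The partners of the oxidase were read from a list of 15 genes, of which 8 passed the filter. None of the 8 was called (limma; 2 at an unadjusted p under 0.05, and 1 called with voom), and 7 were higher in the knockout libraries (56.9% of all tested genes were), with a median log2 fold change of 0.07. Of the other catalytic subunits, Cybb of phagocytes had 3.06, 3.55 and 2.42 FPKM in the knockout libraries, against 1.79, 2.04 and 1.40 in wild type. The knockout values lay above the wild type values, with a log2 fold change of 0.54 (SE 0.13, adjusted p = 0.131, limma) and adjusted p of 0.0388 to 0.299 over 13 alternatives, the lowest with voom. Nox1, Nox4, Duox1 and Duox2 stayed under 1 FPKM in every library, as did Noxa1, the activator that pairs with Noxo1. Per length, Nox3 thus stood above the 5 other listed catalytic subunits in every library. The GTPase genes Rac1 and Rac2, which bind active oxidases, had 57.8 ± 5.52 and 27.0 ± 1.47 FPKM in the knockout libraries, against 54.8 ± 1.86 and 25.8 ± 0.280 in wild type (SD, n = 3 each, adjusted p = 0.630 and 0.555, limma).

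Other genes of otoconia and of the membranes over the sensory epithelia made up a list of 16, of which 13 passed the filter. None was called (limma; 8 at an unadjusted p under 0.05, and 3 called with voom), 9 were higher and 4 lower, and the median log2 fold change was 0.21. Sparcl1, a matrix glycoprotein also found in otoconia, had 282, 284 and 273 FPKM in the knockout libraries, against 242, 244 and 237 in wild type (log2 fold change 0.21, SE 0.041, adjusted p = 0.0924, limma; 0.0250 to 0.287 over 14 alternatives). Its relative Sparc, the most abundant gene of the list, had 2588 ± 116 against 2621 ± 36.8 FPKM in the knockout and wild type libraries (SD, n = 3 each). In bulk RNA the tissue behind this level is not known, so it does not stand for otoconia. Otog, which encodes otogelin of the acellular membranes, had 23.5 ± 1.72 FPKM in knockout and 19.5 ± 0.875 in wild type libraries (adjusted p = 0.128, limma; 0.0392 to 0.293 over 14 alternatives). Otos, a gene of cochlear fibrocytes that the list also held, had 14.1 ± 2.65 FPKM in knockout and 8.87 ± 0.0778 in wild type libraries (adjusted p = 0.0964, limma; 0.0145 to 0.273 over 14 alternatives). Foxi1, a transcription factor of endolymphatic duct cells, was listed at 0 in all 3 knockout libraries and at 0.0771, 0.321 and 0.584 FPKM in wild type. Foxi1 did not pass the filter and was not tested. Slc26a4 of the same list had 1.75 ± 0.104 FPKM in knockout and 1.72 ± 0.553 in wild type libraries (SD, n = 3 each, adjusted p = 0.922, limma).

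A list of 12 genes of the cochlear roof and Reissner's membrane was mixed. Of its 10 tested genes 6 were higher and 4 lower, none was called (limma; 6 at an unadjusted p under 0.05, and 1 called lower with voom), and the median log2 fold change was 0.12. Otx1, the relative of Otx2, did not pass the filter and had 0.531, 0.458 and 0.584 FPKM in the knockout libraries, against 0.637, 1.19 and 0.635 in wild type. Its knockout values thus lay below its wild type values, unlike those of Otx2. Hmx3, a homeobox gene of the non-sensory vestibule that the list also held, had 5.47 ± 0.408 and 4.71 ± 0.205 FPKM in knockout and wild type. The counts and the median of this list are thus not of the roof alone. The signalling gene Wnt4 had 4.30 ± 0.114 FPKM in knockout and 5.56 ± 0.457 in wild type (SD, n = 3 each). For Hmx3 and Wnt4 the adjusted p was 0.236 and 0.116 (limma). Meis2, a homeobox gene, had 1.59 ± 0.406 FPKM in knockout and 2.71 ± 0.416 in wild type libraries (adjusted p = 0.146, limma; 0.0338 to 0.343 over 13 alternatives).

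Of 12 genes of vestibular identity and vestibular hair cells, 10 were tested, 5 higher and 5 lower, with a median log2 fold change of 0.00. The 1 called gene was Calb2, the calretinin gene, a calcium buffer of neurons and hair cells, at 18.5, 21.6 and 18.9 FPKM in the knockout libraries, against 13.1, 11.5 and 13.3 in wild type (log2 fold change 0.60, SE 0.076, adjusted p = 0.0425, limma; 0.00971 to 0.182 over 14 alternatives). Of single libraries left out, knockout 5 was the only one whose absence kept that call. The bone and matrix gene Spp1, also found in type I vestibular hair cells, had 1168 ± 54.4 and 1038 ± 41.9 FPKM, and Tnc had 142 ± 15.8 and 125 ± 12.1 in knockout and wild type (SD, n = 3 each, adjusted p = 0.229 and 0.381, limma). Dlx5 and Dlx6, homeobox genes of the dorsal otic vesicle that becomes the vestibule, had log2 fold changes of -0.10 and -0.19 (adjusted p = 0.505 and 0.313, limma). Bulk levels do not show which tissue of the sample expressed them, so these values do not stand for the vestibule alone.

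**Figure D3:**
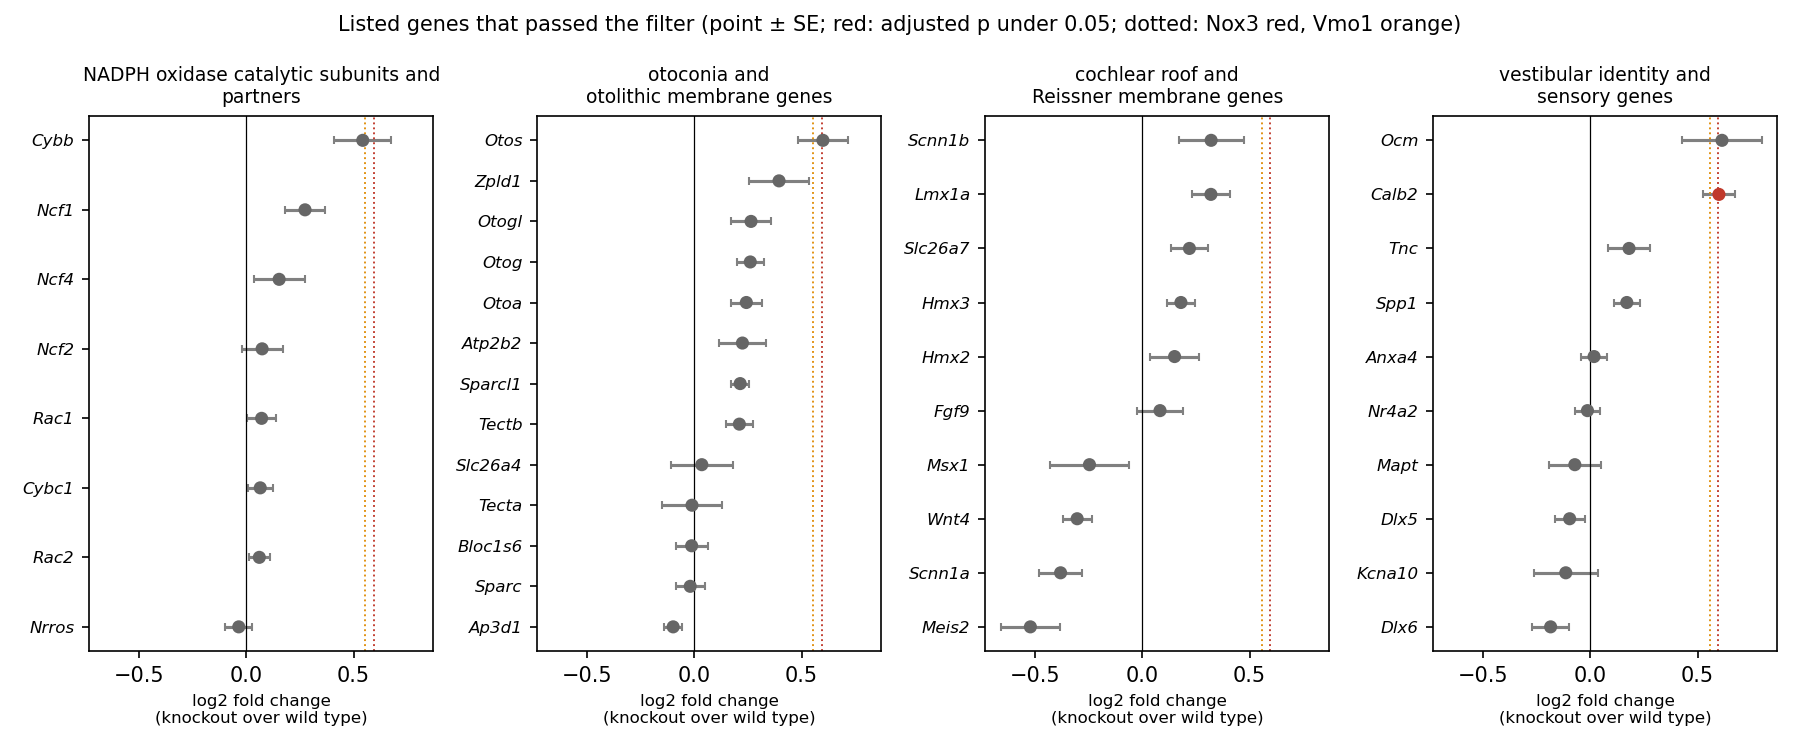
Each panel shows the tested genes of 1 list with their log2 fold change of FPKM + 1 (knockout over wild type, point) and 1 SE (bar), the called gene in red, and dotted lines at the values of Nox3 (red) and Vmo1 (orange). Of the 41 genes shown, 27 are higher and 14 lower, and Calb2 is the 1 called. The genes of the roof list spread to both sides between Meis2 at -0.52 and Scnn1b at 0.32.

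The library pattern of Nox3 was compared with that of 13887 genes with a mean FPKM of at least 1, as the root mean square difference between log2(FPKM + 1) deviations from the mean of the 6 libraries, a measure that includes the group difference. Vmo1 ranked 13 for Nox3 at 0.127 log2 units, Otol1 ranked 2042, Cyba 8555 and Oc90 11789. The members were selected on that group difference, so the ranks of members partly restate it and support nothing. Genes ranked nearest to Nox3 or Vmo1 likewise share their group difference by construction. The 3 genes nearest to Nox3 outside the members were the processed pseudogenes Gm14287 (0.0574) and Gm9762 (0.0839) and the zinc finger gene Zfp382 (0.105), with adjusted p of 0.0713, 0.0828 and 0.163 in limma. Reads of processed pseudogenes can come from their parent genes, so those levels are uncertain. For Vmo1, Nox3 ranked 42. Nearest were Slc17a6, a vesicular glutamate transporter gene of neurons (0.0670), the ubiquitin ligase gene Trim36 (0.0708) and the neuronal calcium sensor gene Vsnl1 (0.0723). Their adjusted p in limma were 0.0999, 0.0924 and 0.121, and none was called. Slc17a6 had 2.29, 2.46 and 2.30 FPKM in the knockout libraries, against 1.26, 1.65 and 1.52 in wild type.

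The genes around Nox3 and Vmo1 were centred near 0 or slightly below. Within 1 Mb on either side of Nox3, 4 of 7 tested genes were higher in the knockout libraries, with a median log2 fold change of 0.03, and the nearest tested gene, Tfb1m, had -0.15 (SE 0.097, adjusted p = 0.45, limma). Within 1 Mb of Vmo1, 21 of 71 tested genes were higher, where 56.9% of all tested genes were, and the median log2 fold change was -0.06. All knockout values lay below all wild type values for 14 of the 71 and above them for 4. Over all tested genes these shares were 9.54% and 15.2%. The nearest tested genes on the 2 sides of Vmo1, Zmynd15 and Psmb6, had log2 fold changes of 0.07 and 0.03. Within 1 Mb of Oc90 all 6 tested genes were higher with a median of 0.21, while Oc90 itself was at -0.03.

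Summed markers of other cells did not overlap between the groups in 4 of 6 lists. In limma 1 gene of the 6 lists was called. With voom, 4 strial marginal cell, 1 hair cell and 1 phagocyte gene were called higher, and 1 middle ear gene lower. Of all genes tested with voom, 390 of 13796 were called. An unadjusted p under 0.05 (limma) was found for 6 of 8 tested strial, 2 of 7 hair cell and 3 of 7 phagocyte genes. The same held for 1 of 2 tested middle ear and 1 of 2 tested choroid plexus genes, against 17.6% of all tested genes. The summed FPKM of 8 strial marginal cell genes was 91.7 to 98.4 in the knockout and 78.2 to 81.6 in the wild type libraries, all 8 were higher, and 1 (Esrrb, log2 fold change 0.40, SE 0.054, adjusted p = 0.0456, limma; 0.00971 to 0.194 over 14 alternatives) was called, a call that ended when any single library was left out. Of its most abundant genes, the ion pump subunit gene Atp1b2 had 47.6 ± 1.503 FPKM in knockout and 43.1 ± 2.14 in wild type, and the potassium channel subunit gene Kcne1 had 11.3 ± 0.888 and 8.77 ± 0.449 (SD, n = 3 each, adjusted p = 0.216 and 0.0999, limma). The sum of 10 hair cell genes was 32.9 to 36.02 in knockout and 29.0 to 31.6 in wild type, with 7 of 7 tested genes higher, and its most abundant gene, the motor gene Myo6, had 9.04 ± 0.190 FPKM in knockout and 7.54 ± 0.2502 in wild type (SD, n = 3 each, adjusted p = 0.104, limma). The sum of 10 phagocyte genes was 239.7 to 306 in knockout and 223 to 239.5 in wild type, and 5 of 7 tested genes were higher, the neutrophil genes S100a8 and S100a9 at log2 fold changes of 1.47 and 1.41, while Cd68 and Csf1r were at -0.04 each. The 7 middle ear epithelium genes summed to 10.9, 20.99 and 101 FPKM in knockout 2, 4 and 5, against 392.3, 743 and 408 in wild type 3, 4 and 5, with both tested genes lower. In wild type most of this was Bpifa1, an airway secretory protein gene, at 336, 608 and 402 FPKM. Skeletal muscle genes summed to 33.6 to 246 FPKM in knockout and 135 to 608 in wild type, with 8 of 8 lower, 0 called (limma; 0 at an unadjusted p under 0.05 and 0 with voom) and the groups overlapping. Choroid plexus genes, which would accompany Otx2 from brain, summed to 8.72 to 10.9 in knockout and 9.48 to 11.2 in wild type, and 4 of 6 stayed under 1 FPKM in every library. Their most abundant gene, Ttr, which encodes the thyroid hormone carrier transthyretin, had 5.47 ± 0.516 FPKM in knockout and 6.60 ± 0.631 in wild type (SD, n = 3 each, adjusted p = 0.234, limma). No list had a gene at 0 in every library. The part of these tissues in the differences of Nox3 and Vmo1 was not tested.

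**Figure D4:**
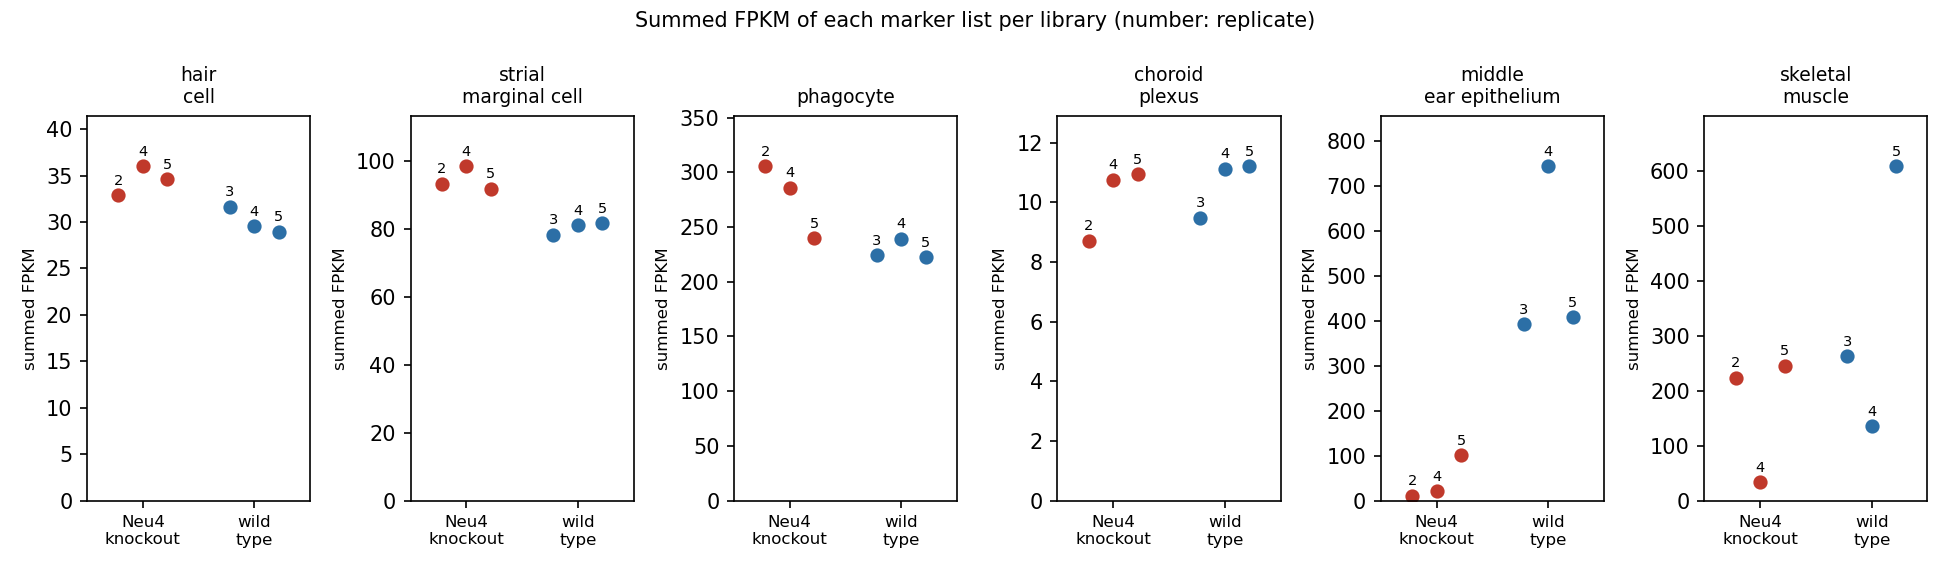
Each panel plots the summed FPKM of 1 marker list (linear axis from 0) per library, knockout left and wild type right, with replicate numbers. Strial marginal cell and hair cell sums are higher in all 3 knockout libraries, middle ear sums are lower in all 3 (101 at most, against 392.3 at least in wild type), and choroid plexus and skeletal muscle sums overlap.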

How the data were processed

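RNA of 6 cochlear samples was sequenced, 3 labelled NEU4 KO and 3 WT, with groups and replicate numbers from the sample titles. The authors deposited 1 table of FPKM values with gene identifiers, symbols and GRCm38 positions. The submitters' processing notes name the build. The aligner, like the counter and its use of strand, was not given in the sources used here. Multiplied by GENCODE M21 exon lengths, 98.1% to 98.2% of the values above 0 came out as whole numbers of fragments (tolerance 0.01), which gave fragment numbers and totals of 15170973 to 17192293. Depth thus limits genes under 1 FPKM. The fit used limma 3.58.1 (lmFit, eBayes with a trend) in R 4.3.3 on log2(FPKM + 1), which understates changes of low genes, for the 14072 genes that reached 1 FPKM in 3 or more libraries. Tests were two-sided, p-values were adjusted by Benjamini-Hochberg over these genes, and the threshold was 0.05. Since values are FPKM, counts were modelled only in the voom alternative. Intervals of fragment ratios are exact at 95%. The members, the gene lists, the tests and the alternatives were chosen with earlier results of these data known. Named genes were the members, from each list the called genes and the most abundant ones, and the 3 genes nearest to Nox3 and Vmo1. Nox1, Nox4, Duox1, Duox2, Noxa1, Cybb, Otog, Otos, Foxi1, Slc26a4, Otx1, Meis2, Dlx5, Dlx6, Scnn1b, Slc26a5, Tecta, Tectb, S100a8, S100a9 and the neighbouring genes were added after their values were seen. All 104 other listed genes were found by symbol. Python 3.11.15 and pandas 2.3.3 were used.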

Additional observations from a re-analysis of the deposited data

How the results depend on the processing

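Of the 8 members, 5 were higher in the knockout libraries under the main setting and 5 to 7 under the 14 alternatives. The sign of Cyba and Oc90 depended on the setting (Cyba -0.05 to 0.01, Oc90 -0.15 to 0.16 on the log2 scale), and the other 6 members kept their sign in each. On the log2 scale, 6 of 112 member values moved by more than the spread within groups, all of them of the low genes Noxo1, Otop1 and Otx2 with a pseudocount of 0.1 or with voom. The filter and the trend cannot change a log2 fold change. The values with no filter, with FPKM of at least 5 and without the trend thus equal the main ones by construction and show no stability. The 47 called genes became 19 with no filter, 103 with FPKM of at least 5, 19 without the trend, 24 with sex as a covariate, 390 with voom on recovered fragments, and 12 to 105 with 1 library left out. Of the members, 2 were called; 1 was called with a pseudocount of 0.1 or median-ratio scaling, 0 with no filter, without the trend or with sex as a covariate, and 0 to 1 with 1 library left out. Of the other listed genes, 2 were called; the number was 0 with no filter, without the trend or with sex as a covariate, 1 with median-ratio scaling, 13 with voom, and 0 to 3 with 1 library left out. The cause of these moves was not tested.

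Replicate numbers 4 and 5 occur in both groups, but no label says that a number marks a shared litter or day. Deviations from the group means correlated at 0.14 between the libraries numbered 4 and at 0.15 between those numbered 5, across genes. Knockout 2 and wild type 3, which share no number, correlated at 0.11. Deviations from a group mean cancel out within the group, so this value follows from the pairs of the other libraries. It therefore cannot show whether the numbers mark anything shared. The other pairs across the groups were at -0.13 to -0.01. With the replicate block 22 genes were called, with 0 members and 5 other listed genes among them, all 5 of skeletal muscle. Depth limits Otx2, Noxo1 and Otop1, at 26 to 62 fragments per library.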
